A study of Homo sapiens with 15 samples.

Results

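The endoplasmic reticulum folding and degradation machinery was followed here through 39 genes in the human intestinal epithelial line Caco-2. They cover chaperones, disulfide isomerases, degradation factors, stress sensors, translocation subunits and export factors, and were chosen by gene symbol as targets of the transcription factors ATF6 and XBP1 or as parts of the same machinery, out of 69215 genes listed in the count tables. The list was chosen with earlier results of these data known, so shares of members set beside those of all genes are a description. Caco-2 derives from a human colon carcinoma and differentiates toward enterocytes in culture. Cells received polysorbate 20 (PS20) at 0.05% for 24 h in 5 libraries, polysorbate 80 (PS80) at 0.05% for 24 h in 5 libraries, or no treatment in 5 control libraries. Both emulsifiers are nonionic polyoxyethylene sorbitan esters, with laurate as the main fatty acid of PS20 and oleate as that of PS80. All libraries came from this 1 cell line, and the labels name neither a vehicle in the control cells nor separate cultures, so p-values measure the spread between these libraries.

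Secreted and membrane proteins enter the endoplasmic reticulum through the SEC61 channel, fold there with the help of Hsp70, Hsp90 and lectin chaperones, and acquire disulfide bonds from isomerases that the ERO1 oxidases recharge. Proteins that fail to fold are drawn back to the cytosol and degraded, a route called ER-associated degradation (ERAD). When unfolded proteins accumulate, the sensors ERN1 (IRE1), EIF2AK3 (PERK) and ATF6 start the unfolded protein response, in which cleaved ATF6 and spliced XBP1 raise transcription of chaperone and ERAD genes, while PERK slows translation and favours ATF4. Enterocytes make large amounts of glycosylated brush border enzymes and lipoproteins and so depend on this machinery.

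The files hold whole-number read counts per gene, with totals of 6749086 to 17251564 per library with PS20, 6769409 to 42271053 with PS80 and 4183096 to 13616301 in control. Levels are given as CPM, counts brought to a common library size with normalization factors. Enterocyte markers summed to 8900 to 9617 CPM with PS20, 10716 to 11347 CPM with PS80 and 10513 to 12290 CPM in control, with KRT20 at 0 counts in all 15 libraries. Of 14 enterocyte markers tested, 4 were higher (28.6%, against 24.4% of all genes tested) and 6 lower (42.9%, against 23.9%) with PS20. With PS80 1 was higher (7.14%, against 17.4%) and 1 lower (7.14%, against 16%). The sum follows its most abundant genes, such as KRT8, at 2684 ± 190 CPM with PS20 and 4436 ± 566 CPM in control. Single markers went both ways with PS20, with log2 fold changes of 0.55 for FABP1, 0.42 for ALPI and -2.83 for SI. Markers of fibroblasts, endothelium and blood cells summed to 186 to 201 CPM with PS20, 194 to 240.4 CPM with PS80 and 220.4 to 229 CPM in control, with HBB among those at 0. The 15 markers of goblet, Paneth and enteroendocrine cells summed to 27.9 to 31.0 CPM with PS20, 21.0 to 37.5 CPM with PS80 and 30.5 to 47.2 CPM in control, with DEFA5, REG3A, CHGA, NEUROD1, GCG and SST at 0. Their part in the results below was not tested, and in bulk RNA fewer cells of a type and less RNA per cell cannot be told apart. PS80 replicates 1, 3, 4 and 5 were counted with another program version than the other 11 libraries, so in those 4 libraries an effect of the version cannot be told apart from PS80.

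Many of these genes are textbook carriers of ER stress response elements, short promoter motifs that ATF6 or XBP1 occupy together with the factor NF-Y. Promoter windows of 300 bases, 250 before and 50 after the first start that RefSeq lists for a gene (GRCh38.p14), were found for 35 of the 39 members, and not for PDIA3, DERL1, DERL3 and SEC24D. Both strands were searched. The ERSE (CCAAT followed after 9 free bases by CCACG) occurred in 7 of the 35 windows (20%), against 22 of 27305 windows of all genes (0.0806%). The ERSE-II (ATTGG followed after 1 free base by CCACG) occurred in 3 of the 35 (8.57%), against 15 of all windows (0.0549%), and the UPRE (TGACGTGG) in 2 (5.71%), against 217 (0.795%). The windows of all genes include those of the members. Members were chosen in part as targets of ATF6 and XBP1, so these shares describe that choice and are no result of the data. The windows of HYOU1, CANX and HSPA5 are printed because they carry such motifs and belong to the members with the smallest p in the comparison of PS20 with control. They read 5′ to 3′ on the strand of the gene, with the fixed motif bases in capitals:
HYOU1: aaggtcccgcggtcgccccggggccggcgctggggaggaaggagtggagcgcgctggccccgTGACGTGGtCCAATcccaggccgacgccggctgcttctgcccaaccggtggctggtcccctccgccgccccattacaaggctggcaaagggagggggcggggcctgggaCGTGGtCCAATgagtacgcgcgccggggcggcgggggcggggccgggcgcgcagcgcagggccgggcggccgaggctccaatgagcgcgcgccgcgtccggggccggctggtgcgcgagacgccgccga
CANX: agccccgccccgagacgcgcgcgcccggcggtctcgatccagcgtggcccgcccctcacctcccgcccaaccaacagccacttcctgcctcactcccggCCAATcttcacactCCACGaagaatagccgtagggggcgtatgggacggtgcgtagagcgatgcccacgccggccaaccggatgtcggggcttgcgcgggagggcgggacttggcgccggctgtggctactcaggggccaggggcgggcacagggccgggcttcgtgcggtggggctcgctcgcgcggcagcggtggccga
HSPA5: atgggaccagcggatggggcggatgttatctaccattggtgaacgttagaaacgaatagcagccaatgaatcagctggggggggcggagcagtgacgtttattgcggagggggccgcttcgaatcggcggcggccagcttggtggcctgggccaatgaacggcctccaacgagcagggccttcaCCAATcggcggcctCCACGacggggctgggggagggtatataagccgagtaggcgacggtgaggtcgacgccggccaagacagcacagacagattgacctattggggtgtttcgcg
The HYOU1 window is chr11:119057156-119057455 on the minus strand, the CANX window chr5:179698679-179698978 on the plus strand and the HSPA5 window chr9:125241294-125241593 on the minus strand. HYOU1 held 2 ERSE-II matches on the strand opposite to the gene, which therefore read in reverse complement here, and a UPRE match that shared bases with the distal of them. The ERSE of CANX lay from 151 to 133 bases before the start, and that of HSPA5 from 66 to 48 bases before it.

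The other members with a match are shown by the matched site alone, read 5′ to 3′ on the strand of the motif with its fixed bases in capitals:
HSP90B1, distal ERSE: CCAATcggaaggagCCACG
HSP90B1, proximal ERSE: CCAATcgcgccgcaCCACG
CALR, ERSE: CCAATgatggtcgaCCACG
ERO1B, ERSE: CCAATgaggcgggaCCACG
CRELD2, ERSE: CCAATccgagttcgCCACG
XBP1, ERSE: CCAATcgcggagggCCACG
SDF2L1, ERSE-II: ATTGGtCCACG
HERPUD1, ERSE-II: ATTGGgCCACG
DNAJC10, UPRE: TGACGTGG
These sites lie at chr12:103930216-103930234 and chr12:103930321-103930339 for HSP90B1, chr19:12938384-12938402 for CALR, chr1:236282183-236282201 for ERO1B, chr22:49918554-49918572 for CRELD2 and chr22:28800603-28800621 for XBP1. The ERSE-II sites lie at chr22:21642114-21642124 for SDF2L1 and chr16:56932025-56932035 for HERPUD1, and the UPRE site at chr2:182716132-182716139 for DNAJC10. A match describes letters in a window and does not show that a factor is bound there.

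**Figure D1:**
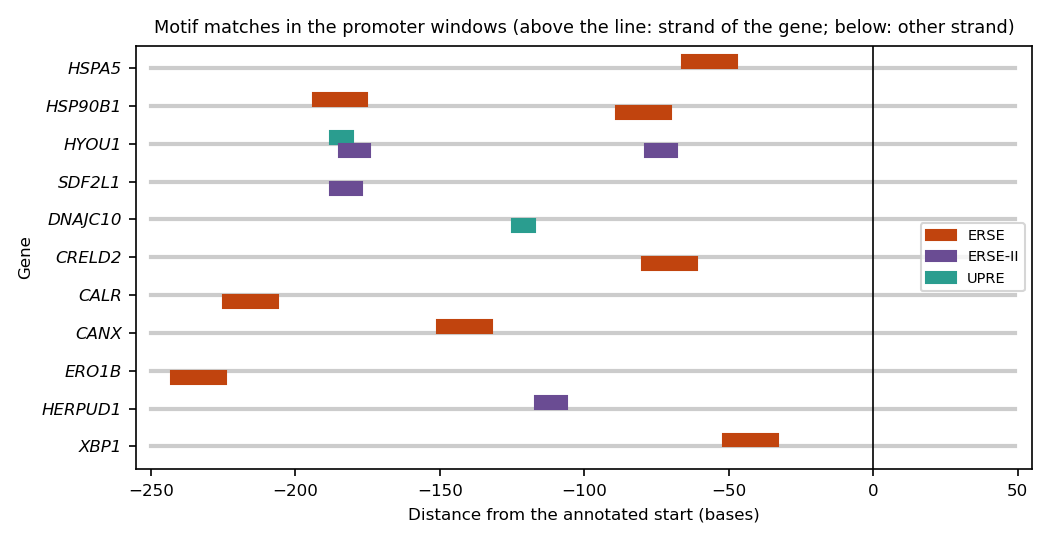
Position of the motif matches in the promoter windows of the 11 members that held at least 1. The horizontal axis is the distance from the annotated start in bases, boxes above a line are matches on the strand of the gene and boxes below it matches on the other strand. All matches lay before the start, and HSP90B1 and HYOU1 held more than 1.

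Levels of different genes were compared per kilobase of exon (RPKM). The length used is that of all annotated exons of a gene, 2802 bases for CALR and 13764 for CANX, so the order depends on the annotation. In CPM, CANX (2089 ± 62.4 in control) lay above CALR (1044 ± 40.9). CALR (calreticulin, a soluble calcium-binding lectin) was the highest member, at 437 ± 19.2 RPKM with PS20, 396 ± 14.99 RPKM with PS80 and 373 ± 14.6 RPKM in control (mean ± SD, n = 5 libraries each, as throughout). PDIA4, the isomerase ERp72, followed at 249 ± 8.12 RPKM with PS20, 192 ± 12.002 RPKM with PS80 and 172 ± 3.94 RPKM in control. CANX (calnexin, the membrane-bound lectin) came next, at 203 ± 9.23 RPKM with PS20, 157 ± 7.997 RPKM with PS80 and 152 ± 4.53 RPKM in control. PDIA6 at 144 ± 8.62 RPKM and HSPA5 at 136 ± 4.26 RPKM followed in control cells, a difference smaller than the SD of PDIA6. The sensors ERN1 and EIF2AK3 were expressed at 0.728 ± 0.147 and 2.602 ± 0.247 RPKM in control, far below XBP1 at 61.5 ± 4.87 RPKM. ERO1B, the oxidase better known from pancreas, was the lowest tested member at 0.275 ± 0.0353 RPKM with PS20, 0.182 ± 0.04204 RPKM with PS80 and 0.178 ± 0.0419 RPKM in control. DERL3, a derlin of secretory cells, had 0 or 1 count in every library and was not tested, and 77.0% of its exonic bases are shared with SMARCB1. The 39 members summed to 14152 ± 530.4 CPM with PS20, 11476 ± 124 CPM with PS80 and 11275 ± 54.4 CPM in control, and the lowest PS20 library (13413 CPM) lay above the highest PS80 library (11606.5 CPM) and the highest control library (11352 CPM).

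**Figure D2:**
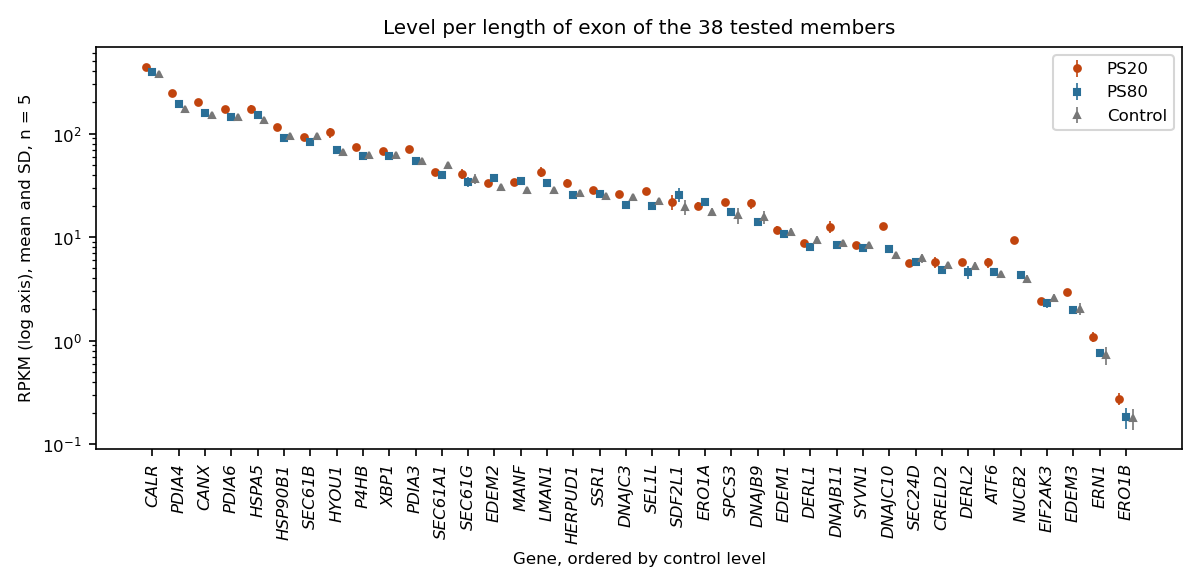
Level of the 38 tested members per length of exon. Points are means and bars SDs of 5 libraries in RPKM on a log axis, with genes ordered by their control level, from CALR at 373 ± 14.6 RPKM to ERO1B at 0.178 ± 0.0419 RPKM in control.

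The first comparison asked how PS20 changed this machinery. PS20 raised mRNA of most members: chaperones such as HYOU1 and DNAJC10, both ER lectins, all 6 disulfide isomerases and oxidases, the cargo receptor LMAN1 and the calcium-binding protein NUCB2 rose, by up to 2.33-fold, and the channel subunit SEC61A1 fell. Of the 38 members tested, 25 rose and 1 fell by the quasi-likelihood test of edgeR, with p-values adjusted over all 12769 genes tested (Benjamini-Hochberg) and a threshold of 0.05, and 12 did not pass. The share that rose was 65.8%, and over all genes tested 24.4% were higher and 23.9% lower. Because the members were chosen with earlier results of these data known, this contrast describes the list and is no independent test. The members' median log2 fold change was 0.26, and that of all genes tested 0.01. In 20 members every PS20 library lay above every control library and in 1 member below, against 16.2% and 16.3% of all genes tested. With replicates 1 and 2 alone 15 members rose, and with replicates 3 to 5 alone 25 rose and 2 fell, SEC61A1 and SEC24D. Mitochondrial genes took 2.03% to 2.58% of the counts with PS20, 1.45% to 2.97% with PS80 and 1.497% to 1.91% in control, so every PS20 library lay above every control library, and the part of this in the members' changes was not tested.

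PS80 moved fewer members and in both directions. EDEM2, MANF, ERO1A, LMAN1, PDIA4, SDF2L1, DNAJC10 and HSPA5 rose by at most 1.27-fold, and SEC61A1, DNAJC3, DERL1, SEC61B and SEL1L fell. By the same test, 8 members were higher (21.1%, against 17.4% of all genes tested), 5 were lower (13.2%, against 16%) and 25 did not pass, where 33.4% of all genes passed in either direction, so both shares were near those of all genes. The median log2 fold change was 0.00 for the members and 0.00 for all genes tested. The PS80 libraries lay wholly above the control libraries in 7 members and wholly below in 3, against 10.3% and 9.3% of all genes tested. The count of lower members was 3 without PS80 replicate 2, without control replicate 4 or without control replicate 5. With replicates 1 and 2 alone 1 member was higher and 2 were lower, and with replicates 3 to 5 alone 8 were higher and 6 lower. With the counting version as a term, which takes the PS80 level from replicate 2 alone, 2 members stayed higher (EDEM2 and PDIA4) and 6 were lower.

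**Figure D3:**
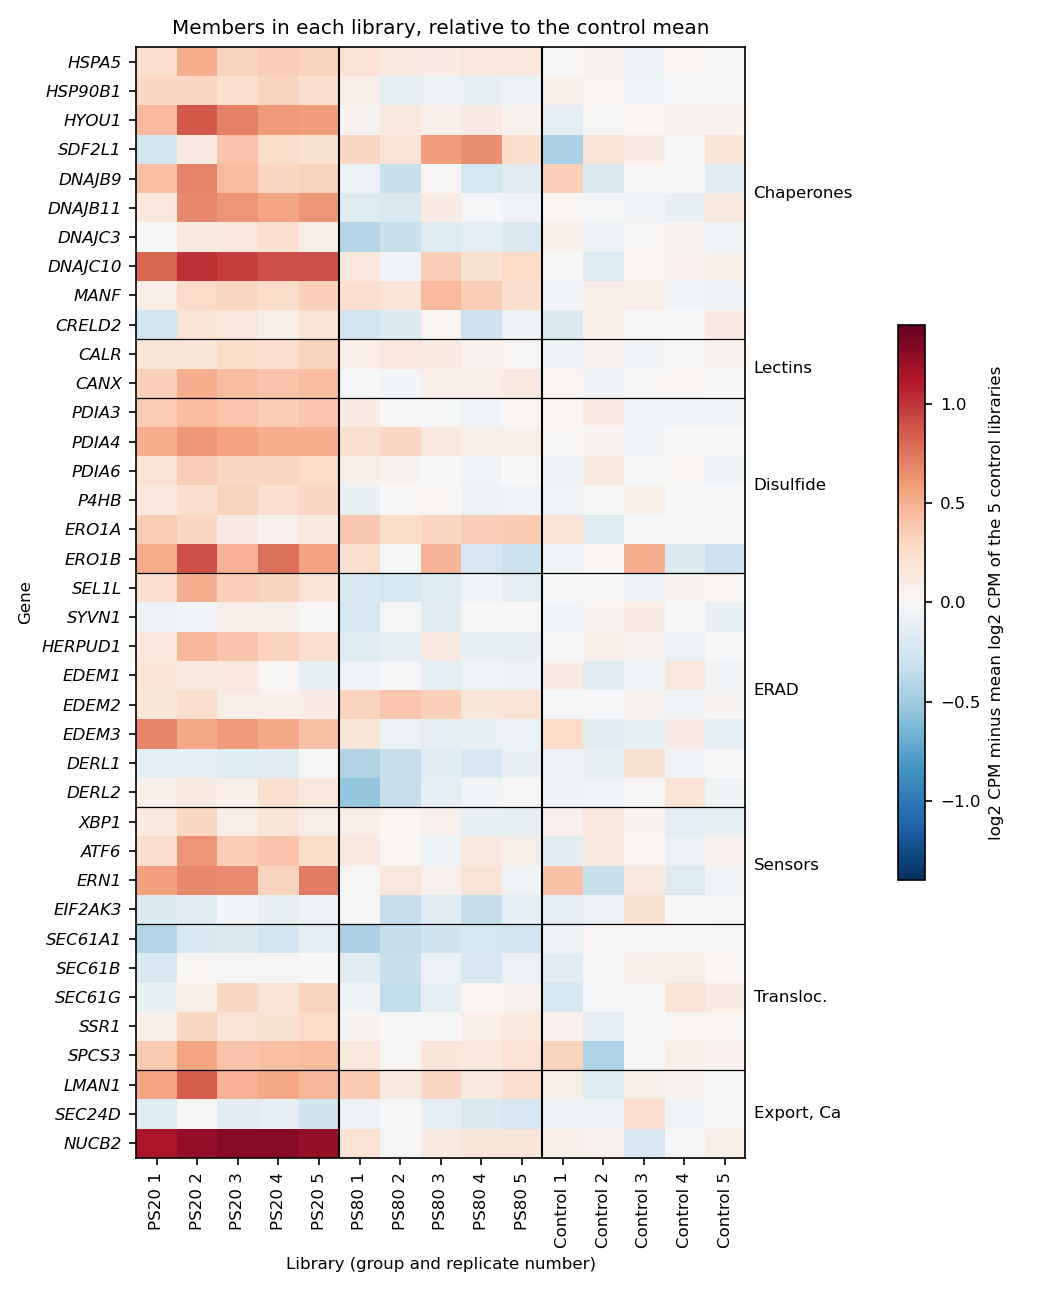
Each tested member in each library, as log2 CPM minus the mean log2 CPM of the 5 control libraries. Rows are genes grouped by role and columns are libraries by group and replicate number, red is higher and blue lower than the control mean. Most rows are red across the 5 PS20 libraries, deepest for NUCB2 and DNAJC10, and the PS80 columns hold pale red and pale blue rows.

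Among the Hsp70 and Hsp90 chaperones and their partners, 7 of 10 rose with PS20 (70%, against 24.4% of all genes tested). With PS80 4 rose (40%, against 17.4%) and 1 fell (10%, against 16%). DNAJC10 (ERdj5, a cochaperone that reduces disulfides; ENSG00000077232.19, chr2:182716255-182794464, plus strand) had 295, 344, 330.1, 315 and 317 CPM in the PS20 libraries, 187, 165, 214, 196 and 206 CPM in the PS80 libraries and 172, 149, 172, 177 and 178 CPM in the control libraries. Every PS20 library lay above every other library, and PS80 replicate 2 lay inside the control range. The log2 fold change against control was 0.92 ± 0.07 (adjusted p = 6.28e-10) with PS20, the largest of the group at 1.89-fold, and 0.19 ± 0.07 (adjusted p = 0.0306) with PS80. The PS80 call ended without PS80 replicate 3, 4 or 5 or control replicate 2, with log2 fold changes of 0.14 to 0.24 over the 10 omissions, and the estimate turned to -0.04 with the counting version as a term.

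HYOU1 (GRP170, a large Hsp70 relative that exchanges nucleotide on HSPA5; ENSG00000149428.21, chr11:119044188-119057227, minus strand) had 611, 814, 731, 676 and 672 CPM with PS20, 458, 492, 472, 483 and 463 CPM with PS80 and 407, 453, 456, 462 and 461 CPM in control. PS20 libraries were all higher than the rest, with replicate 2 highest, while control replicate 1 stood below the other control libraries. Its log2 fold change was 0.65 ± 0.06 (adjusted p = 3.03e-08) with PS20, or 1.56-fold, against 0.08 with PS80, which did not pass (adjusted p = 0.328; 95% interval -0.05 to 0.21). HSPA5 (BiP, the central Hsp70 of the compartment; ENSG00000044574.9, chr9:125234853-125241382, minus strand) had 1052, 1279, 1115, 1132 and 1117 CPM with PS20, 1027, 973, 956, 984 and 987 CPM with PS80 and 892, 921, 848, 909 and 887 CPM in control. The groups did not overlap, with PS20 highest and control lowest. Its log2 fold changes were 0.35 ± 0.05 (adjusted p = 4.34e-06) with PS20 and 0.14 ± 0.05 (adjusted p = 0.0247) with PS80. The PS80 call ended without PS80 replicate 1 or 5 or control replicate 3, with 0.12 to 0.16 over the 10 omissions, and with the counting version as a term (0.13, adjusted p = 0.289).

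MANF, a small HSPA5-binding protein that is also secreted, had 65.2, 73.99, 75.7, 73.3 and 77.03 CPM with PS20, 71.97, 69.7, 83.8, 78.3 and 72.7 CPM with PS80 and 59.8, 65.3, 65.4, 58.6 and 57.9 CPM in control. PS20 replicate 1 lay within the control range and the other treated libraries lay above it. MANF rose under both emulsifiers, with log2 fold changes of 0.26 ± 0.07 (adjusted p = 0.0031) for PS20 and 0.29 ± 0.07 (adjusted p = 0.00183) for PS80, the PS80 value not passing with the counting version as a term (0.19, adjusted p = 0.180). DNAJC3 (p58IPK, a cochaperone that binds unfolded proteins for HSPA5) had 135, 147, 151, 159 and 144 CPM with PS20, 101, 109, 120.1, 123 and 117 CPM with PS80 and 142, 129, 137, 138 and 129.5 CPM in control. All PS80 libraries were below all control libraries, while the PS20 libraries were above control except for replicate 1. DNAJC3 fell with PS80, at -0.24 ± 0.06 (adjusted p = 0.0033) on the log2 scale, and its change with PS20 was 0.12 and did not pass (adjusted p = 0.0884).

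HSP90B1 (GRP94, the ER Hsp90) rose with PS20 by log2 0.27 ± 0.04 (adjusted p = 3.88e-05), to 1499.7 ± 38.4 CPM, against 1242 ± 42.97 CPM in control. DNAJB11 (ERdj3) rose by log2 0.54 ± 0.08 (adjusted p = 2.2e-05), with PS20 replicate 1 at 90.6 CPM and the other PS20 libraries at 120.2 to 131 CPM, against 75.8 to 89.9 CPM in control. DNAJB9 (ERdj4), a cochaperone that restrains ERN1, rose by log2 0.45 ± 0.09 (adjusted p = 0.000494), although control replicate 1 at 49.5 CPM reached the PS20 range of 48.6 to 63.7 CPM. With PS80 the log2 fold changes were -0.05 for HSP90B1, -0.07 for DNAJB11 and -0.16 for DNAJB9, and none of these 3 passed. SDF2L1, which binds DNAJB11, rose with PS80 by log2 0.35 ± 0.12 (adjusted p = 0.0332), at 23.6 to 32.3 CPM against 15.01 to 23.4 CPM in control, and its change of 0.15 with PS20 did not pass. That PS80 call ended without PS80 replicate 3 or 4 or control replicate 1 or 4 (0.26 to 0.40 over the 10 omissions) and with the counting version as a term (0.16, adjusted p = 0.555). CRELD2, a stress-induced secreted protein, passed against control with neither emulsifier (log2 fold changes of 0.08 with PS20 and -0.16 with PS80).

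The lectin chaperones hold glycoproteins until they are folded, and both rose with PS20 (against 24.4% of all genes tested). CANX (ENSG00000127022.16, chr5:179678628-179731641, plus strand) had 2626, 2979, 2819, 2759.6 and 2811 CPM with PS20, 2067, 2032, 2233, 2224 and 2278 CPM with PS80 and 2136, 1981, 2106, 2126 and 2097 CPM in control. The lowest PS20 library was above every PS80 and control library, and the PS80 and control ranges overlapped. CANX rose by log2 0.42 ± 0.05 (adjusted p = 2.32e-07) with PS20, and the PS80 value of 0.05 did not pass. CALR reached 1226 ± 53.8 CPM with PS20, against 1044 ± 40.9 CPM in control, a log2 fold change of 0.23 ± 0.04 (adjusted p = 0.00024). In PS80 libraries CALR averaged 1111 ± 41.99 CPM, a log2 difference of 0.09 from control (adjusted p = 0.136), and 9.64% of its exonic bases also lie in another gene.

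All 6 disulfide isomerases and oxidases rose with PS20 (against 24.4% of all genes tested). With PS80 2 of the 6 rose (33.3%, against 17.4%), a share of few genes. PDIA4 (ENSG00000155660.11, chr7:149003062-149028662, minus strand) had 807, 861, 835, 796 and 806 CPM with PS20, 659, 689, 621, 601 and 598 CPM with PS80 and 573, 579.5, 545, 567 and 563 CPM in control. Its 3 groups were fully separated, and within PS80 replicates 1 and 2 were the highest. The log2 fold change was 0.54 ± 0.05 (adjusted p = 8.71e-09) with PS20 and 0.16 ± 0.05 (adjusted p = 0.00907) with PS80. PDIA3 (ERp57, the isomerase that works with the lectins) had 819, 858, 833, 815 and 834 CPM with PS20, 691, 639.9, 629.8, 612 and 652 CPM with PS80 and 653, 691, 612, 618 and 623 CPM in control. PS20 libraries lay above all others, and PS80 and control overlapped over their whole range. PDIA3 rose by log2 0.38 ± 0.05 (adjusted p = 7.6e-07) with PS20, and PS80 differed from control by 0.01 (95% interval -0.08 to 0.11). The copy PDIA3P1 took counts equal to 0.618% of those of PDIA3.

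ERO1A, the oxidase that recharges the isomerases and is also known as a hypoxia target, had 168, 161, 143, 138 and 143 CPM with PS20, 170.5, 157, 162, 167 and 170.4 CPM with PS80 and 151, 116, 130.1, 133 and 129.8 CPM in control. Every PS80 library was above every control library, and PS20 replicates 3 to 5 lay inside the control range. Its log2 fold change was 0.19 ± 0.07 (adjusted p = 0.0208) with PS20 and 0.33 ± 0.07 (adjusted p = 0.000632) with PS80. The PS20 call ended without PS20 replicate 1 or 2 or control replicate 2 (0.15 to 0.23 over the 10 omissions), and the PS80 call with the counting version as a term (0.25, adjusted p = 0.0864). ERO1B rose with PS20 by log2 0.67 ± 0.19 (adjusted p = 0.00738), from the lowest counts of the tested members, at 3.74 to 4.996 CPM with PS20, 2.17 to 3.73 CPM with PS80 and 2.19 to 3.82 CPM in control. P4HB (protein disulfide isomerase itself, also a subunit of collagen prolyl hydroxylase) rose by log2 0.25 ± 0.04 (adjusted p = 0.000108) and PDIA6 by 0.28 ± 0.05 (adjusted p = 5.42e-05) with PS20. Neither passed with PS80, at -0.04 for P4HB and 0.02 for PDIA6, and 25.2% of the exonic bases of PDIA6 are shared with ATP6V1C2.

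**Figure D4:**
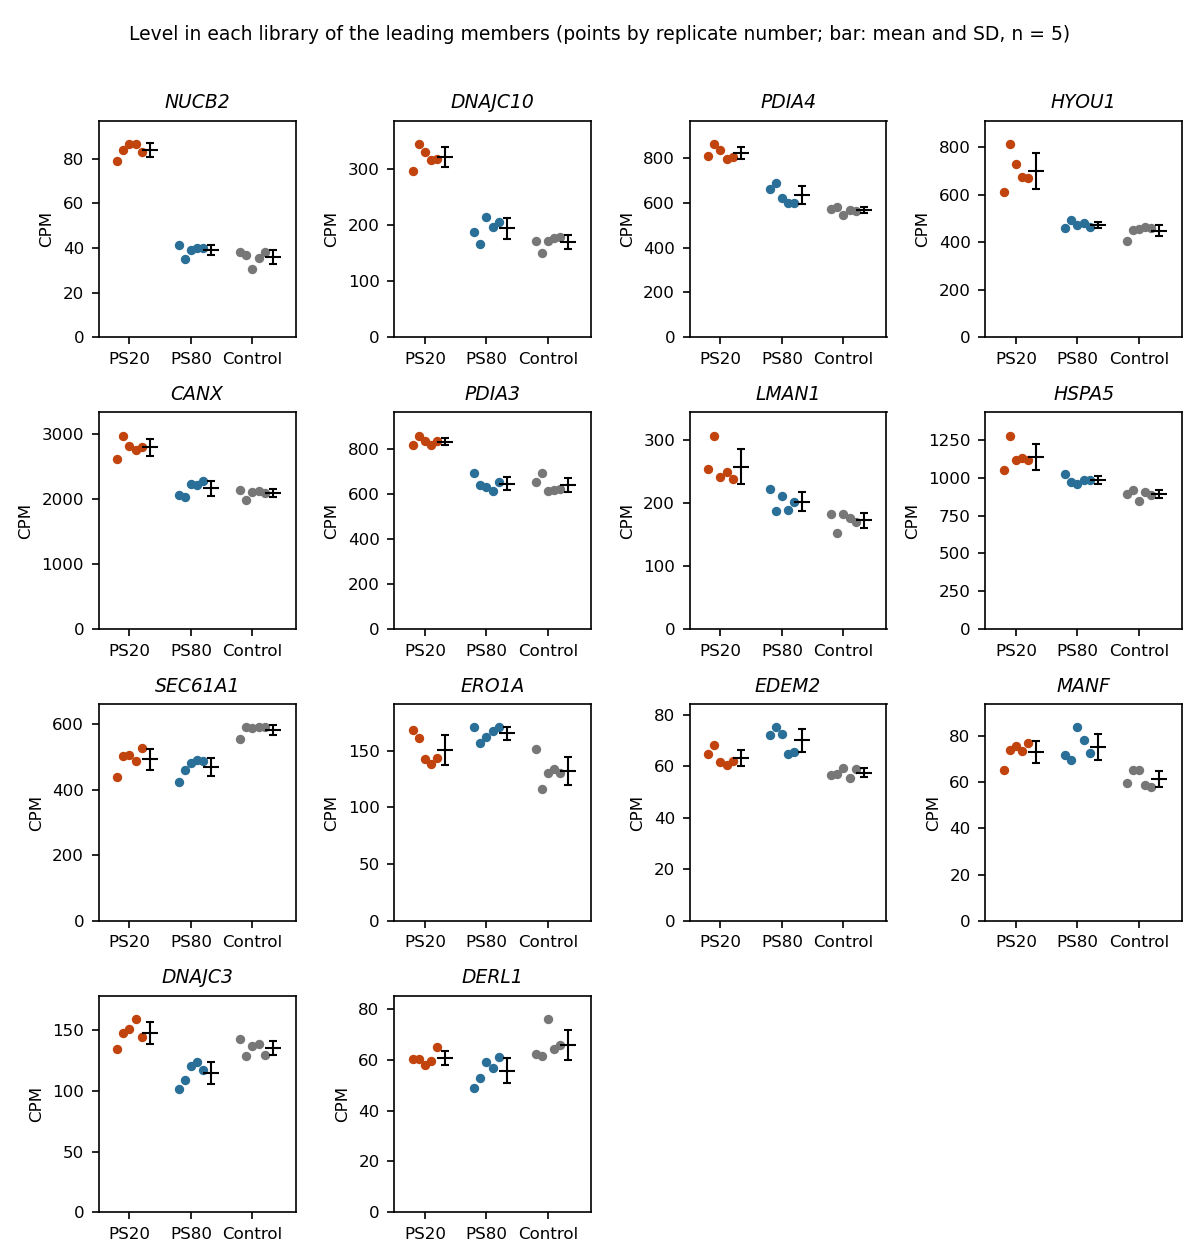
Level in each library of the 14 members with the smallest p in either comparison with control, in CPM from 0. Points run by replicate number within PS20, PS80 and control, and the bar beside them is the mean with SD (n = 5). NUCB2, DNAJC10, HYOU1 and CANX are separated from the other groups with PS20, while SEC61A1 lies below control with both emulsifiers.

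Of 8 ERAD genes tested, SEL1L, HERPUD1 and EDEM3 rose with PS20 (37.5%, against 24.4% of all genes tested). With PS80 EDEM2 rose (12.5%, against 17.4%) and SEL1L and DERL1 fell (25%, against 16%), shares of so few genes that are near those of all genes. SEL1L, the scaffold of the ubiquitin ligase SYVN1 (HRD1), had 251, 299, 267, 264 and 245 CPM with PS20, 183, 179, 188, 205 and 195 CPM with PS80 and 214, 212, 202, 219 and 216 CPM in control. PS20 libraries were all above control, and of the PS80 libraries replicate 4 alone reached the control range. The log2 fold changes were 0.32 ± 0.05 (adjusted p = 5.42e-05) with PS20 and -0.16 ± 0.05 (adjusted p = 0.025) with PS80, and the PS80 call ended without PS80 replicate 1 or 2 or control replicate 4 or 5 (-0.19 to -0.14 over the 10 omissions), and with the counting version as a term (-0.24, adjusted p = 0.0569). SYVN1 itself differed from control by 0.02 with PS20 (95% interval -0.12 to 0.15) and -0.07 with PS80 (95% interval -0.20 to 0.07), and neither passed. HERPUD1, which joins the ligase complex and is a classical stress target, rose with PS20 by log2 0.32 ± 0.06 (adjusted p = 0.00028), to 151 to 187 CPM, against 127 to 142 CPM in control, and not with PS80 (-0.07, adjusted p = 0.448).

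The EDEM mannosidases trim glycans of proteins bound for degradation, and 3 of them were tested. EDEM2 had 64.6, 68.05, 61.4, 60.4 and 61.8 CPM with PS20, 72.1, 75.02, 72.6, 64.8 and 65.5 CPM with PS80 and 56.6, 56.8, 59.5, 55.4 and 59.02 CPM in control. Both treated groups lay wholly above control, with the PS80 libraries mostly higher. EDEM2 rose with PS80 by log2 0.29 ± 0.06 (adjusted p = 0.000831), and its PS20 value of 0.14 missed the threshold (adjusted p = 0.0607). EDEM3 rose with PS20 by log2 0.55 ± 0.08 (adjusted p = 1.33e-05), at 50.1 to 60.3 CPM against 33.7 to 45.5 CPM in control, and was at -0.05 with PS80. EDEM1 did not pass with either, at 0.07 with PS20 and -0.07 with PS80. DERL1, a membrane protein of the retrotranslocation step, had 60.3, 60.1, 57.8, 59.3 and 65.05 CPM with PS20, 48.9, 52.6, 59.02, 56.7 and 60.95 CPM with PS80 and 62.2, 61.3, 75.9, 64.1 and 65.9 CPM in control. All PS80 libraries lay below all control libraries, and PS20 libraries straddled the lower end of control. DERL1 fell with PS80 (log2 -0.24 ± 0.07, adjusted p = 0.0121) and did not pass with PS20 (-0.12, adjusted p = 0.178). DERL2 was at 0.11 with PS20 and -0.20 with PS80. The PS80 value passed where replicate numbers were a block (-0.19, adjusted p = 0.0381) and without PS80 replicate 5 (-0.28, adjusted p = 0.0233).

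Of the 4 genes of sensors and their effector, ERN1, ATF6 and XBP1 rose with PS20 (75%, against 24.4% of all genes tested). In the main fit neither these nor EIF2AK3 passed with PS80. ERN1, the kinase and nuclease that splices XBP1, had 20.4, 21.9, 21.7, 16.99 and 22.8 CPM with PS20, 13.9, 15.3, 14.3, 15.6 and 13.3 CPM with PS80 and 18.2, 11.1, 15.04, 12.1 and 13.3 CPM in control. PS20 replicate 4 lay below control replicate 1, and the other PS20 libraries lay above all control libraries. It rose by log2 0.62 ± 0.12 (adjusted p = 0.000166) with PS20 and differed by 0.10 with PS80 (95% interval -0.14 to 0.34). ATF6, the membrane-bound factor that is cleaved under stress, rose with PS20 by log2 0.37 ± 0.07 (adjusted p = 0.000294), to 73.8 to 96.1 CPM, against 56.4 to 68.5 CPM in control. XBP1 had 204, 227, 198, 209 and 198 CPM with PS20, 197, 189, 194, 174 and 172 CPM with PS80 and 194, 204, 190.3, 169 and 173 CPM in control. PS20 and control overlapped. Its log2 fold change of 0.15 ± 0.06 (adjusted p = 0.0373) with PS20 no longer passed without PS20 replicate 2 or 4 or control replicate 3, 4 or 5 (0.12 to 0.19 over the 10 omissions), and gene counts do not separate spliced from unspliced XBP1 mRNA. EIF2AK3, the kinase that phosphorylates the initiation factor EIF2S1, was at -0.11 with PS20 (adjusted p = 0.234) and -0.18 with PS80 (adjusted p = 0.0626). The PS80 value passed as lower with a replicate block (-0.19, adjusted p = 0.0270), limma-voom (-0.19, 0.0479) and library totals alone (-0.21, 0.0329). It also passed with replicates 3 to 5 alone (-0.24, 0.0131), without PS80 replicate 1 (-0.23, 0.0229) and without control replicate 1 (-0.22, 0.0364). With the counting version as a term it was -0.33.

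Among 5 translocation genes, SSR1 and SPCS3 rose (40%, against 24.4% of all genes tested) and SEC61A1 fell (20%, against 23.9%) with PS20. With PS80 SEC61A1 and SEC61B fell (40%, against 16%). Shares of so few genes do not set this group apart from all genes. SEC61A1, the pore of the channel (ENSG00000058262.11, chr3:128051641-128071705, plus strand), had 440.4, 503, 506, 489 and 529 CPM with PS20, 424, 462, 481, 490.2 and 487 CPM with PS80 and 556, 591, 589, 590.3 and 591 CPM in control. Every treated library was below every control library, and control replicate 1 was below the other 4, which lay within 589 to 591 CPM. SEC61A1 fell, with log2 fold changes of -0.24 ± 0.05 (adjusted p = 0.000549) with PS20 and -0.32 ± 0.05 (adjusted p = 9.38e-05) with PS80, the smallest p of the members with PS80. The small subunit SEC61B was lower with PS80 (log2 -0.18 ± 0.06, adjusted p = 0.0332), at 91.3 to 107 CPM against 102 to 120.4 CPM in control, and at -0.03 with PS20. That PS80 call ended without PS80 replicate 2 or 4 or control replicate 3, 4 or 5 (-0.22 to -0.14 over the 10 omissions). The other small subunit SEC61G passed against control with neither in the main fit (0.15 with PS20 and -0.11 with PS80). With the counting version as a term its PS80 value was -0.37. SSR1, a subunit of the translocon-associated complex, rose with PS20 by log2 0.21 ± 0.05 (adjusted p = 0.00151), and SPCS3, a subunit of signal peptidase, rose by log2 0.43 ± 0.09 (adjusted p = 0.000375). SPCS3 had 141 to 160.4 CPM with PS20, 110.0 to 126 CPM with PS80 and 81.2 to 135 CPM in control, with control replicate 2 lowest.

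The calcium-binding protein NUCB2 gave the largest change of all members. NUCB2, a nucleobindin that is also the precursor of nesfatin-1 (ENSG00000070081.18, chr11:17208153-17349980, plus strand), had 78.8, 83.8, 86.4, 86.5 and 83.1 CPM with PS20, 41.2, 35.3, 39.05, 40.1 and 40.1 CPM with PS80 and 38.2, 36.96, 30.6, 35.4 and 38.1 CPM in control. The PS20 libraries stood far above both other groups with little spread, and the PS80 libraries overlapped control. It rose with PS20 by log2 1.22 ± 0.07 (adjusted p = 1.26e-11), or 2.33-fold, and differed with PS80 by 0.12 (95% interval -0.02 to 0.25). LMAN1 (ERGIC-53, a lectin that ferries glycoproteins such as coagulation factors to the Golgi; ENSG00000074695.6, chr18:59327823-59359265, minus strand) had 254, 307, 242, 249 and 237 CPM with PS20, 222, 188, 211, 189 and 202 CPM with PS80 and 182, 153, 182, 177 and 170.1 CPM in control. The 3 groups did not overlap, with PS20 highest and PS20 replicate 2 far above the other PS20 libraries. Its log2 fold changes were 0.58 ± 0.07 (adjusted p = 8.12e-07) with PS20 and 0.23 ± 0.07 (adjusted p = 0.0145) with PS80, the PS80 value not passing with the counting version as a term (0.12, adjusted p = 0.465). SEC24D, a cargo-binding subunit of the COPII coat, did not pass with PS20 (-0.14) or PS80 (-0.12) in the main fit. With replicates 3 to 5 alone it passed as lower with PS20 (-0.20, adjusted p = 0.0217) and with PS80 (-0.22, 0.0200). With replicates 1 and 2 alone it was at 0.00 with PS20 and 0.04 with PS80.

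**Figure D5:**
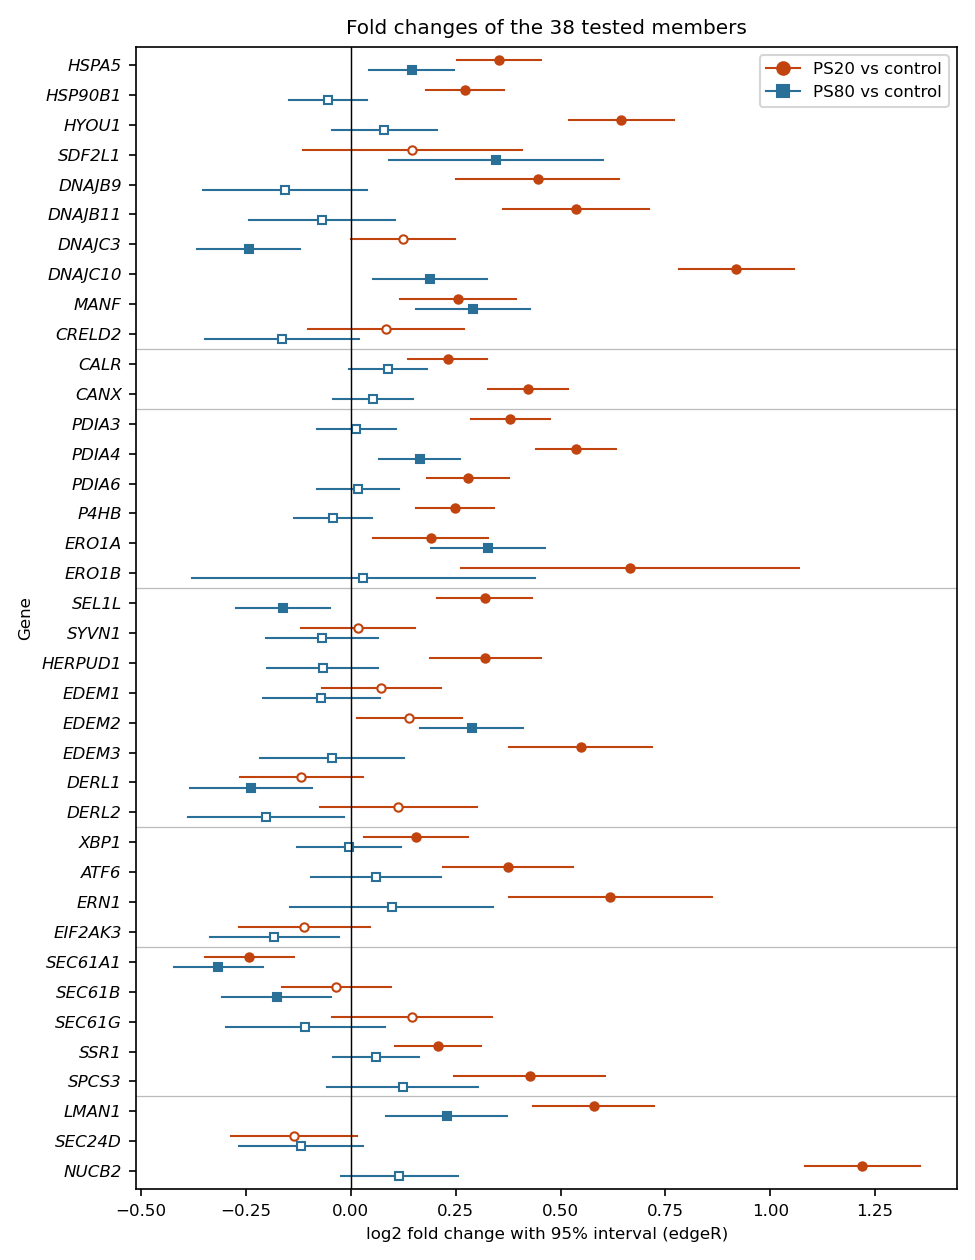
Log2 fold change of the 38 tested members against control with 95% intervals, for PS20 (circles) and PS80 (squares), both set against the same 5 control libraries. Filled symbols passed at an adjusted p of 0.05 and open symbols did not. PS20 values lie mostly right of 0, up to 1.22 for NUCB2, and PS80 values lie between -0.32 for SEC61A1 and 0.35 for SDF2L1.

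The emulsifiers share dose and time and differ in their fatty acid, so they were also set against each other directly, as 1 pair. PS20 gave higher levels than PS80 of most members, including chaperones, lectins, isomerases, sensors and signal peptidase subunit SPCS3, and a lower level of EDEM2. By edgeR's quasi-likelihood test, 27 of 38 members were higher with PS20 (71.1%, against 17.3% of all genes tested), 1 was lower (against 18.2%) and 10 did not pass. The median log2 difference was 0.30 for the members and 0.00 for all genes tested. The choice of members with earlier results known limits this contrast as well. In 24 members every PS20 library lay above every PS80 library, against 11% of all genes tested. The count of higher members was 15 with replicates 1 and 2 alone, 27 with replicates 3 to 5 alone and 20 with the counting version as a term.

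NUCB2 differed most, at a log2 difference of 1.10 ± 0.06 (adjusted p = 2.04e-10), or 2.15-fold higher with PS20. DNAJC10 followed at 0.73 ± 0.06 (adjusted p = 5.47e-08), and ERO1B at 0.64 ± 0.18 (adjusted p = 0.00792), DNAJB11 at 0.60 ± 0.08 (adjusted p = 9.95e-06), DNAJB9 at 0.60 ± 0.09 (adjusted p = 3.03e-05) and EDEM3 at 0.59 ± 0.08 (adjusted p = 7.4e-06). HYOU1 was 1.48-fold higher with PS20 than with PS80 (log2 0.57 ± 0.06, adjusted p = 5.19e-07). SEL1L, which moved in opposite directions against control, differed by log2 0.48 ± 0.05 (adjusted p = 9.23e-07), and DNAJC3 by 0.37 ± 0.06 (adjusted p = 5.75e-05). Among the abundant folding proteins the log2 differences were 0.37 ± 0.05 (adjusted p = 3.51e-06) for CANX, 0.37 ± 0.05 (adjusted p = 3.05e-06) for PDIA3, 0.37 ± 0.05 (adjusted p = 3.01e-06) for PDIA4, 0.33 ± 0.04 (adjusted p = 1.1e-05) for HSP90B1 and 0.21 ± 0.05 (adjusted p = 0.00197) for HSPA5. ATF6 was higher with PS20 by log2 0.31 ± 0.07 (adjusted p = 0.00188) and ERN1 by 0.52 ± 0.11 (adjusted p = 0.000833).

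Several members near the threshold depended on single libraries or settings. DERL2 (log2 0.32 ± 0.09, adjusted p = 0.00736), CRELD2 (log2 0.25 ± 0.09, adjusted p = 0.0295) and SEC61G (log2 0.25 ± 0.09, adjusted p = 0.0307) were higher with PS20 than with PS80 although neither emulsifier passed against control. The CRELD2 call ended without PS20 replicate 2, 3, 4 or 5 or PS80 replicate 1, 2 or 4 (0.22 to 0.31 over the 10 omissions), and that of SEC61G without PS20 replicate 3, 4 or 5 or PS80 replicate 2 or 3 (0.19 to 0.31). CALR (log2 0.14 ± 0.04, adjusted p = 0.0174) lost its call without PS20 replicate 5 or PS80 replicate 5 (0.12 to 0.16), and SSR1 (log2 0.15 ± 0.05, adjusted p = 0.0215) without PS20 replicate 2 or 5 or PS80 replicate 2 or 3 (0.13 to 0.18). XBP1 (log2 0.16 ± 0.06, adjusted p = 0.0404) lost it without PS20 replicate 1, 2 or 4 or PS80 replicate 4 or 5 (0.12 to 0.18). EDEM2 was lower with PS20, at a log2 difference of -0.15 ± 0.06 (adjusted p = 0.0497), a call that ended without PS20 replicate 1, 3, 4 or 5 or PS80 replicate 1, 2 or 3 (-0.18 to -0.12 over the 10 omissions). With the counting version as a term the differences of HSPA5 (0.23, adjusted p = 0.0648), PDIA6 (0.23, 0.0558), ERN1 (0.44, 0.0732) and ERO1B (0.66, 0.0701) did not pass. The same term ended the calls of CALR (0.07, adjusted p = 0.520), CRELD2 (0.28, 0.153), SSR1 (0.20, 0.0970) and XBP1 (0.13, 0.393).

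For the members that did not pass between the emulsifiers, the intervals bound the difference. They ran from -0.17 to 0.10 for MANF, -0.03 to 0.18 for SEC61A1 and -0.16 to 0.13 for SEC24D, all on the log2 scale. SDF2L1, at -0.20, and ERO1A, at -0.14, had estimates below 0, with intervals of -0.44 to 0.05 for SDF2L1 and -0.27 to -0.00 for ERO1A. ERO1A passed as lower with PS20 with replicates 3 to 5 alone (-0.23, adjusted p = 0.000185) and without PS20 replicate 1 (-0.18, 0.0373). With replicates 1 and 2 alone ERO1A was at 0.01. The intervals were -0.04 to 0.22 for SYVN1, 0.01 to 0.28 for EDEM1, -0.02 to 0.26 for DERL1, -0.08 to 0.22 for EIF2AK3 and 0.01 to 0.27 for SEC61B. SEC61B passed as higher with PS20 with library totals alone (0.17, adjusted p = 0.0411) and with replicates 3 to 5 alone (0.14, 0.0323). It also passed without PS20 replicate 1 (0.18, 0.0242), and with the counting version as a term it was 0.29. EDEM1 passed as higher without PS20 replicate 5 (0.18, adjusted p = 0.0389).

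Members with and without an ERSE or ERSE-II match in their window were described side by side, without a test. Of the 10 with a match, 8 rose with PS20 (median log2 fold change 0.30), and of the 25 without one, 16 rose and 1 fell (median 0.26), where 24.4% of all genes tested were higher and 23.9% lower. With PS80, 2 of the 10 with a match rose, and of the 25 without one 6 rose and 4 fell, near the 17.4% higher and 16% lower of all genes tested. Between the emulsifiers 9 of the 10 were higher with PS20, and 17 of the 25 were higher and 1 lower, against 17.3% higher and 18.2% lower of all genes tested. The members with the largest changes with PS20, NUCB2 and DNAJC10, held neither ERSE nor ERSE-II in the window searched, but DNAJC10 held a UPRE. CRELD2 and SDF2L1, which held one, did not pass with PS20.

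Other genes of the same pathways were read from the same fit, in which 24.4% of all genes tested were higher and 23.9% lower with PS20, and 17.4% higher and 16% lower with PS80. Of 21 tested genes listed as PERK branch and ATF4 targets 18 were higher with PS20 (median log2 fold change 0.96). With PS80 10 were higher and 1 lower (median 0.26). The list's name does not assign these changes to PERK, whose part was not tested. SLC7A11, the cystine transporter, had 112 ± 20.9 CPM with PS20, 41.9 ± 6.48 CPM with PS80 and 22.3 ± 4.38 CPM in control (log2 2.35 ± 0.14 with PS20 against control, adjusted p = 4.4e-11), and STC2, a secreted glycoprotein, had 243 ± 17.8 CPM with PS20, 169 ± 17.2 CPM with PS80 and 114 ± 8.98 CPM in control (log2 1.10 ± 0.07 with PS20 against control, adjusted p = 1.29e-10). Other folding enzymes and lectin cycle genes numbered 13 higher and 3 lower of 30 with PS20 (median 0.16), among them SIL1, a nucleotide exchange factor of HSPA5, at log2 0.93 ± 0.09 (adjusted p = 7.95e-08), and FKBP14, a prolyl isomerase, at -1.07 ± 0.10 (adjusted p = 2.11e-08). With PS80 they numbered 3 higher and 4 lower. Of 34 other ERAD genes 8 were higher (23.5%) and 9 lower (26.5%) with PS20, and 5 were higher and 6 lower (17.6%) with PS80, all near the shares of all genes. Of 38 other translocation and glycosylation genes 14 were higher and 8 lower with PS20, and 3 were higher and 8 lower with PS80. In that group SSR4, a partner of SSR1, rose by log2 0.72 ± 0.05 (adjusted p = 3.42e-10) with PS20. Of 35 COPII and cargo receptor genes 8 were higher (22.9%) and 12 lower (34.3%) with PS20, and 3 were higher (8.57%) and 10 lower (28.6%) with PS80. Of 12 mitochondrial chaperones 3 were higher and 1 lower with PS20 and 7 were higher with PS80, and of 23 cytosolic heat shock genes 10 were higher and 1 lower with PS20 and 10 were higher with PS80. Of 24 other regulators of the unfolded protein response 6 were higher (25%) and 6 lower (25%) with PS20, and 4 were higher (16.7%) and 5 lower (20.8%) with PS80, near the shares of all genes.

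The median deviation of the members from their group mean was between -0.09 and 0.07 on the log2 scale in every library, lowest in PS20 replicate 1 and highest in PS20 replicate 2. DNAJB11, HYOU1, CRELD2 and SEC61B were lowest in PS20 replicate 1 within the PS20 group, while HYOU1, HSPA5 and LMAN1 were highest in PS20 replicate 2. Between replicates 1 and 2 and replicates 3 to 5, averaged over the groups, SDF2L1 (-0.28), SEC61G (-0.23) and DERL2 (-0.18) differed most, being lower in replicates 1 and 2.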

How the data were processed

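Poly(A)-selected total RNA of 15 Caco-2 libraries was sequenced, 5 each with PS20, PS80 and no emulsifier. The authors deposited whole-number read counts per gene and library. Per the file headers, they were made with featureCounts 2.0.0 in 11 libraries and 2.0.3 in 4 PS80 libraries, on GENCODE 42 with reads under a mapping quality of 10 left out and no strand option, so antisense genes are not separated. The submitters' processing notes list cutadapt, STAR 2.7.9a, DESeq2 1.32.0 and GRCh38.

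Library totals ran from 4183096 to 42271053 counts, a ratio of 10.1, and low counts are less precise in the shallow libraries. Genes were kept by edgeR's filterByExpr (minimum count 10, minimum total 15), which left 12769 genes and 38 members. Counts were scaled by TMM (factors 0.978 to 1.015) and fitted over all libraries with 1 term per group in edgeR 4.0.16 (R 4.3.3, limma 3.58.1), by the quasi-likelihood test with Benjamini-Hochberg adjustment over all genes tested and a threshold of 0.05. The error beside a log2 fold change is its standard error, from the F statistic, and intervals are 95%. The script was tested on simulated data. RPKM divides by the exon length in the files.

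Members and gene lists were chosen with earlier results of these data known. All members are named. The 8 with the smallest p in each comparison with control were given in every library, as were a few more members chosen after their values were seen. Up to 2 genes per direction could be named from each other list. Promoter windows and sequences are from RefSeq (GRCh38.p14), with the first listed window used for 6 members that have several.

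The alternatives were RLE factors, library totals, no filter, a CPM filter, DESeq2 1.42.0, limma-voom, only the compared groups, a replicate block, replicate subsets, a counting version term and leaving out each library. The main fit is unpaired. No label states what a replicate number marks, and the replicate block was fitted as an alternative. Replicate numbers were taken as a possible pairing of PS80 with control. There the correlation of deviations of same-numbered libraries was above 0.1 in 5 of 5 pairs (0.102 to 0.304). In the other comparisons it was above 0.1 in 3 of 5 pairs.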

Additional observations from a re-analysis of the deposited data

Results flagged for a closer look

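In 12 of 114 combinations of a member and a group, 1 library stood apart from the other 4 by a gap larger than Dixon's 95% limit for 5 values, which chance alone exceeds in about 1 of 20 groups. Their causes were not tested. In the PS20 group, replicate 1 was low for CRELD2 (23.1 CPM, others 29.6 to 32.0), for DNAJB11 (90.6 CPM, others 120.2 to 131) and for SEC61B (98.2 CPM, others 113 to 116), and replicate 2 was high for LMAN1 (307 CPM, others 237 to 254). In the PS80 group, replicate 1 was high for EDEM3 (42.2 CPM, others 34.7 to 35.4) and for HSP90B1 (1314 CPM, others 1153 to 1184), and replicate 3 was high for HERPUD1 (147 CPM, others 119.8 to 127). In the control group, replicate 1 was low for HYOU1 (407 CPM, others 453 to 462) and for SEC61A1 (556 CPM, others 589 to 591). Control replicate 2 was low for CANX (1981 CPM, others 2097 to 2136) and for DNAJC10 (149 CPM, others 172 to 178), and control replicate 3 was high for SEC24D (72.3 CPM, others 58.3 to 60.3).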

How the results depend on the processing

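Of the 26 members called with PS20 against control, 24 kept their call whichever library was left out and 16 under all 21 alternatives. For PS80 against control these were 8 and 3 of 13 (DNAJC3, EDEM2 and SEC61A1), and for PS20 against PS80 22 and 14 of 28. Leaving out 1 library gave 23 to 25 higher and 1 lower for PS20 against control, 6 to 8 higher and 3 to 6 lower for PS80 against control, and 24 to 27 higher and 0 to 1 lower for PS20 against PS80. Replicates 1 and 2 alone gave 15 higher for PS20 against control, 1 higher and 2 lower for PS80 against control, and 15 higher and 0 lower for PS20 against PS80, and replicates 3 to 5 alone gave 2 lower for PS20 against control. Over all genes, replicates 1 and 2 alone called 1545 higher and 1571 lower (3115 and 3048 in all libraries) for PS20 against control, 1103 and 922 (2224 and 2042) for PS80 against control, and 611 and 786 (2203 and 2324) for PS20 against PS80, where fewer libraries are compared. For PS80 against control, 5 members were higher with library totals alone and 2 with the counting version as a term, and 3 were lower without a filter. The version term called 1295 of all genes lower there, and 1119 higher and 1316 lower for PS20 against PS80. EDEM2, the 1 member lower with PS20 than with PS80, also passed by DESeq2 and limma-voom. It did not pass with library totals alone, without a filter, with only the 2 groups compared or with replicates 1 and 2 alone. In each of these 0 members were lower (the adjusted p of EDEM2 was 0.0625 to 0.361). EDEM2 also did not pass with replicates 3 to 5 alone (-0.13, adjusted p = 0.0953). The 1 lower member there was ERO1A (-0.23, adjusted p = 0.000185). The causes of these shifts were otherwise not tested.

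With the replicate number as a block, 27 members were higher and 1 lower for PS20 against control, 8 and 7 for PS80 against control, and 28 and 2 for PS20 against PS80. No label says what a number marks in any group. Of the PS20 libraries, 4 of 5 correlated best with their own number in control (correlations -0.0264 to 0.248) and 2 of 5 in PS80 (0.0741 to 0.290). Of the PS80 libraries, 3 of 5 did so in control (0.102 to 0.304). These correlations are a hint from the data and not the design. The block added DNAJC3 (adjusted p = 0.0423) and EDEM2 (0.0434) with PS20 against control, and SEC61B (0.0376) and ERO1A (0.0392) between the emulsifiers. Besides the PS80 calls of EIF2AK3 and DERL2, it changed no other call.

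The following log2 values changed sign, DNAJC10 with PS80 being the 1 called member among them. For PS20 against control, these were SDF2L1 (-0.00458), SYVN1 (-0.0716) and SEC24D (2.26e-05) with replicates 1 and 2 alone, EDEM1 (-0.000762) with replicates 3 to 5 alone, and, leaving out 1 library, SEC61B (-0.0767 to 0.00567) and SYVN1 (-0.00637 to 0.0397). For PS80 against control, they were PDIA3 (-0.0140) and PDIA6 (-0.0103) with library totals, XBP1 (0.0190) without a filter, and ERO1B (-0.00829) by limma-voom. Replicates 1 and 2 alone turned CANX (-0.00612), PDIA3 (-0.0147) and SEC24D (0.0402), and replicates 3 to 5 alone DNAJB11 (0.00930), ERO1B (-0.0311) and XBP1 (0.0251). The version term turned DNAJC10 (-0.0355), CANX (-0.0403), XBP1 (0.0268), SEC24D (0.0121) and NUCB2 (-0.0293). Leaving out 1 library turned EDEM3 (-0.0975 to 0.00870), ERO1B (-0.0574 to 0.130), PDIA3 (-0.0123 to 0.0428), PDIA6 (-0.00886 to 0.0516) and XBP1 (-0.0396 to 0.0342). For PS20 against PS80, they were SEC24D with library totals (0.00819) and with replicates 3 to 5 alone (0.0211), ERO1A (0.00690) and EIF2AK3 (-0.0169) with replicates 1 and 2 alone, and MANF (0.0700) with the version term. Leaving out 1 library turned MANF (-0.0622 to 0.00214) and SEC24D (-0.0572 to 0.0236).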
